A study of Mus musculus with 12 samples.

Results

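The Notch pathway genes described here are 10 genes, named by symbol: the receptors Notch1, Notch2 and Notch3, the ligands Dll1, Dll3 and Jag1, the nuclear factor Rbpj, and the effectors Hes1, Hes5 and Hey1. All 10 were found in both count tables, among 27095 genes, by the gene IDs 18128, 18129 and 18131 (receptors), 13388, 13389 and 16449 (ligands), 19664 (Rbpj) and 15205, 15208 and 15213 (effectors), each in the order of the names above. The rule uses no measured value, but the genes were chosen with earlier results of these data known. Acetylation of histone H3 at lysine 14 (H3K14ac) was measured at them by chromatin immunoprecipitation and sequencing (ChIP-seq).

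The cells were mouse neural stem and progenitor cells (NSPCs) of the cortices and ganglionic eminences of E14.5 embryos, grown as neurospheres. Differentiating WT NSPCs had been dissociated and plated on laminin in cortical neuron medium, and proliferating WT NSPCs were kept in neurosphere medium, with 3 H3K14ac ChIP libraries of each. Each stage also had 1 input library (chromatin without immunoprecipitation) from WT cells, 1 IgG control library, for which no genotype is labelled, and 1 H3K14ac ChIP library of Hbo1 null cells, which lack the acetyltransferase HBO1 (gene Kat7) that makes this mark and served as a negative control. The time spent on laminin and the kind of Hbo1 allele are not given in the sources used here. The design text speaks of 4 wild-type foetuses, but no label ties a library to a foetus, so the p-values reflect how libraries varied, in part perhaps for technical reasons.

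Notch signalling passes between neighbouring cells: a Delta-like or Jagged ligand on a cell binds a Notch receptor on its neighbour, the receptor is cut, and its intracellular part enters the nucleus. There it joins RBPJ, a DNA-binding protein that otherwise recruits co-repressors, and switches on genes such as Hes1 and Hes5. The HES and HEY repressors hold proneural genes down, and in the embryonic forebrain this keeps radial glia and other progenitors from becoming neurons. H3K14ac is a mark of open chromatin that is found at the starts of active genes.

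The files give reads in a window of 1000 bases that begins at each transcription start site (TSS window) and reads over each full gene body, window included. The 3565 genes of at most 1000 bases had equal counts in both tables. Gene body totals were 12549913 to 17074249 in differentiating WT libraries and 3992697 to 7611239 in proliferating WT libraries, against 12689734 (differentiating) and 11871306 (proliferating) in the inputs and 2771713 (differentiating) and 2526252 (proliferating) in the IgG controls. The null libraries held only 320601 (differentiating) and 64071 (proliferating). Levels are given as counts per 1e6 gene body counts (CPM). All TSS windows have the same length, so their CPM can be compared between genes. Windows of stem cell markers stood highest over input among the 7 marker lists: the 10 neural stem markers (Sox2, Nes, Pax6 and others) summed to 1.45 to 2.16 times input in differentiating and 2.87 to 4.02 times input in proliferating WT libraries, with none of the 10 at 0, and to 1.02 (differentiating) and 2.00 (proliferating) times input in IgG. The 10 neuronal markers (Tubb3, Dcx and others) summed to 1.20 to 1.64 times input in differentiating and 1.40 to 1.49 times input in proliferating WT libraries.

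The promoters of 5 of the genes are shown because they carry the contrasts described below: Hes5, Notch1 and Rbpj had the windows called higher over input in proliferating cells, Dll1 was next to Notch1 in its stage difference, and Dll3 had the lowest window. Each line runs 5′ to 3′ from 250 bases before the start to 50 bases from it, from RefSeq (GRCm38.p6, mm10). Capitals mark TGGGAA on either strand (TTCCCA when read on the printed strand), the core of the letters that RBPJ binds.

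Hes5 promoter, chr4:154960673-154960972, plus strand: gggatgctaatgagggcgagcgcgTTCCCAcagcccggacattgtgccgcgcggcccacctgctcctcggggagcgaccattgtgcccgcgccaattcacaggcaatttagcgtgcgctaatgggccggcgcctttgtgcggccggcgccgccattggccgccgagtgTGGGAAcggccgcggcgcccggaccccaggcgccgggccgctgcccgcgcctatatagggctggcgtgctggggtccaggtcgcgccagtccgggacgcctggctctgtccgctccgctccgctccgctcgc

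Notch1 promoter, chr2:26503773-26504072, minus strand: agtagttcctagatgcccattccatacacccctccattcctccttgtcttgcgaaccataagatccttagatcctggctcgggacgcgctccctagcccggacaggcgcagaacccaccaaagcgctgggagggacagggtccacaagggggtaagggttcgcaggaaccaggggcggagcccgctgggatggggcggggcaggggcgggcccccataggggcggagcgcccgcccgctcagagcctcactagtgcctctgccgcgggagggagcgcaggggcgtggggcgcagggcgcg

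Rbpj promoter, chr5:53590096-53590395, plus strand: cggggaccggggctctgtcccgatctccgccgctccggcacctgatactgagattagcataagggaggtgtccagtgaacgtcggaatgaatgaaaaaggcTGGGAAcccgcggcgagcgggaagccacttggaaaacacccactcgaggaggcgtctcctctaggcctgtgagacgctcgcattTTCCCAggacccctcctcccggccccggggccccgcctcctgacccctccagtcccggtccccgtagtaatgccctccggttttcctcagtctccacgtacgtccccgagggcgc

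Dll1 promoter, chr17:15375774-15376073, minus strand: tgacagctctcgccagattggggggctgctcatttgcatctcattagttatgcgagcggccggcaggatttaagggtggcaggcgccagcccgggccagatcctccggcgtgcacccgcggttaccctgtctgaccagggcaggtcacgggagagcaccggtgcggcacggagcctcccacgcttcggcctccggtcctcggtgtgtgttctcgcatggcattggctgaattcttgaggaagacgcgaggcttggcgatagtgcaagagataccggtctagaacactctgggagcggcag

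Dll3 promoter, chr7:28301736-28302035, minus strand: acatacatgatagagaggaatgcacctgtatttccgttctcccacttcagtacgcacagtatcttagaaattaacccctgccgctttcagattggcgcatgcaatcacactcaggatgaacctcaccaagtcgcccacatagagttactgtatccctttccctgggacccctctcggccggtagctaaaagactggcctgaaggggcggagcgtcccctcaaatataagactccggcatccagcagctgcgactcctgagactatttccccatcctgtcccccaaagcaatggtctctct

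The longer RBPJ letters GTGGGAA, searched on both strands and holding the core TGGGAA within them, occur 2 times in the Hes5 promoter, with first bases at -226 on the minus strand and -83 on the plus strand relative to the start. Of 32851 RefSeq promoters of this length, 2097 (6.38%) hold GTGGGAA and 84 (0.256%) hold it 2 or more times. The Rbpj promoter has the core without the preceding G at -149 and -65, and 25.6% of all promoters hold that core. The letters CACGNG, which HES and HEY proteins bind, are at -105 in the Dll1 promoter and in 27.5% of all promoters. They also occur at another Dll1 start and in the Jag1, Notch2 and Notch3 promoters, which are not shown.

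RefSeq gave 10 promoter sequences for 8 of the 10 genes; Hes1 and Hey1 are not shown. The 10 sequences held between 11 and 41 CpG dinucleotides, against a median of 7 over all promoters, and the fewest were in Dll3 (11 CpG, 52.0% GC) and the most in Hes5 and Notch2 (41 CpG each). The counted window begins at the start used in the files, so the last 50 printed bases lie within it where that is the printed start. For Notch1, Dll1 and Dll3 the gene length in the files equals the distance from the printed start to the end of the gene (45921, 8470 and 8231 bases), while for Hes5 and Rbpj it differs (1449 against 1450 bases, and 67231 against 67100 bases), so how much of these 2 sequences the window covers is not known.

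Notch1 had the highest TSS window of the 10 genes in both stages. It lies at chr2:26457902-26503822 (mm10, RefSeq) on the minus strand and encodes the main Notch receptor of neural progenitors. Its window stood at 3.27, 1.80 and 1.93 CPM in differentiating libraries, against 6.60, 5.76 and 5.52 CPM in proliferating libraries, from 23 to 42 reads a library. Every differentiating library was below every proliferating one. The mean was at the 98.9th percentile of all windows in differentiating cells and at the 99.5th percentile in proliferating cells.

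Notch2 (chr3:98013538-98150367), a receptor of the same family, stood at 1.67, 1.72 and 1.58 CPM in differentiating and 2.20, 3.01 and 1.97 CPM in proliferating libraries. The groups did not overlap. Notch3 (chr17:32120820-32166896), a receptor best known from vascular smooth muscle that neural progenitors also express, stood at 2.23, 1.17 and 1.11 CPM in differentiating and 1.76, 1.5 and 1.97 CPM in proliferating libraries. Its groups overlapped, because differentiating replicate 1 was the highest of the 6.

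Dll1 (chr17:15367354-15376932), the Delta-like ligand that progenitors and newborn neurons show to their neighbours, stood at 1.35, 0.939 and 1.41 CPM in differentiating and 1.98, 3.01 and 4.07 CPM in proliferating libraries. All differentiating values lay below all proliferating ones. Dll3 (chr7:28293555-28301785), a divergent ligand that acts on Notch within the cell that makes it, stood at 0.877, 0.939 and 1.11 CPM in differentiating and 0.660, 1.25 and 1.45 CPM in proliferating libraries, and the groups overlapped. Jag1 (chr2:137081451-137116520), the Jagged ligand, stood at 2.31, 1.17 and 0.996 CPM in differentiating and 1.32, 3.01 and 1.45 CPM in proliferating libraries. The 6 Jag1 values were mixed between the groups.

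Rbpj (chr5:53555779-53657445) encodes the DNA-binding protein that all Notch receptors act through. Its window stood at 1.43, 1.64 and 1.05 CPM in differentiating and 2.42, 3.26 and 3.42 CPM in proliferating libraries, with no overlap. RefSeq annotates 3 Rbpj pseudogenes, so some of these reads may belong to copies.

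Hes1 (chr16:30065357-30067796), a repressor whose level oscillates in progenitors, stood at 1.27, 1.56 and 1.76 CPM in differentiating and 3.96, 2.76 and 3.02 CPM in proliferating libraries. Hes5 (chr4:154960626-154962372), a repressor that depends on Notch in the embryonic brain, stood at 2.31, 1.17 and 2.52 CPM in differentiating and 2.64, 5.51 and 5.26 CPM in proliferating libraries. Hey1 (chr3:8663359-8667038), a related repressor, stood at 1.67, 1.33 and 1.17 CPM in differentiating and 1.76, 1.75 and 2.50 CPM in proliferating libraries. None of the 3 effectors had overlapping groups, although the gap was narrow for Hes5 (2.52 against 2.64 CPM) and Hey1 (1.67 against 1.75 CPM).

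**Figure D1:**
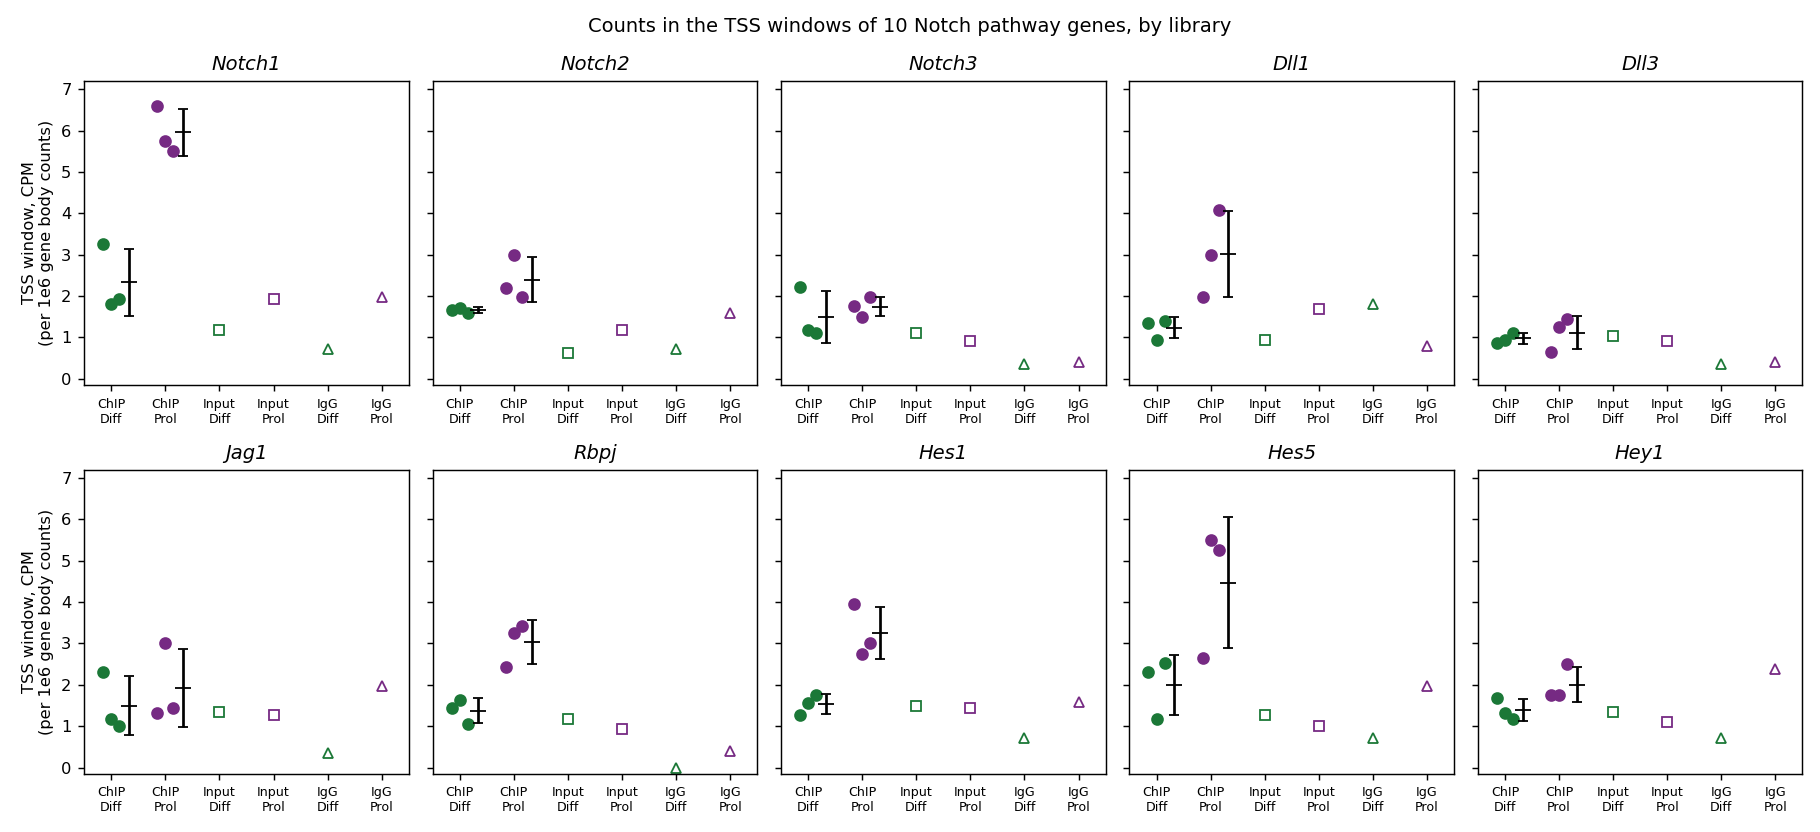
Counts in the TSS window of each gene per 1e6 gene body counts, by library: filled circles are WT H3K14ac ChIP, squares input and triangles IgG, with differentiating (green) left of proliferating (purple), and bars give the mean ± SD of 3 ChIP libraries. Notch1 in proliferating cells, at 5.52 to 6.60 CPM, is the highest group, and the IgG values of Hey1 and Jag1 in proliferating cells reach the ChIP values.

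In order of mean level, differentiating libraries had Notch1 (2.33 ± 0.812 CPM, SD, n = 3) above Hes5 (2.00 ± 0.724 CPM), Notch2 (1.66 ± 0.0711 CPM), Hes1 (1.53 ± 0.243 CPM), Notch3 (1.51 ± 0.629 CPM), Jag1 (1.49 ± 0.714 CPM), Hey1 (1.39 ± 0.257 CPM), Rbpj (1.38 ± 0.298 CPM), Dll1 (1.23 ± 0.256 CPM) and Dll3 (0.976 ± 0.122 CPM). Proliferating libraries had Notch1 (5.96 ± 0.570 CPM) above Hes5 (4.47 ± 1.59 CPM), Hes1 (3.25 ± 0.634 CPM), Rbpj (3.03 ± 0.534 CPM), Dll1 (3.02 ± 1.05 CPM), Notch2 (2.39 ± 0.543 CPM), Hey1 (2.00 ± 0.427 CPM), Jag1 (1.92 ± 0.939 CPM), Notch3 (1.74 ± 0.234 CPM) and Dll3 (1.12 ± 0.409 CPM). Notch1, Hes5, Hey1 and Dll3 held the same ranks in both stages, while Notch2 was next to Hes5 in differentiating cells and Dll1 and Rbpj near the bottom there. Among neighbours in each order, only the step down to Dll3 was larger than both SDs. The median over all windows was 1.17 CPM in differentiating and 1.41 CPM in proliferating libraries. The Dll3 mean lay below it in both stages, at the 28.7th and 33.8th percentile, and the other 9 means lay above it.

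The first question was whether the mark at these genes differed between differentiating and proliferating cells. Of the 10 windows, 7 (Notch1, Notch2, Dll1, Rbpj, Hes1, Hes5 and Hey1) had every differentiating library below every proliferating one in CPM, none had the reverse, and all 10 means were lower. Over all 19477 tested windows, 33.7% lay below without overlap and 2.51% above, so the whole set of windows is shifted the same way on this scale. In the edgeR quasi-likelihood test with TMM scaling of the windows, which centres that shift (median log2 change of all windows 0.02), 1 of 10 windows passed an adjusted p of 0.05. That was Notch1, which fell by 0.86 on the log2 scale (SE 0.27, adjusted p 0.0292). Of all windows 4.57% were called lower and 2.03% higher, so a single call among 10 genes does not set them apart. Summed over the 10 windows, WT ChIP held 18.4, 13.5 and 14.6 CPM in differentiating and 25.3, 30.8 and 30.6 CPM in proliferating libraries. The inputs held 11.5 (differentiating) and 12.4 CPM (proliferating), and IgG 6.49 (18 reads) and 13.5 CPM (34 reads). IgG was thus lower in differentiating cells too, and its part in the ChIP difference was not tested.

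A further 4 windows had differences of similar size that did not pass in edgeR: the log2 difference (differentiating over proliferating) was -0.85 (SE 0.30, adjusted p 0.0594) for Dll1, -0.69 (SE 0.30, adjusted p 0.139) for Rbpj, -0.66 (SE 0.27, adjusted p 0.12) for Hes5 and -0.55 (SE 0.29, adjusted p 0.247) for Hes1. The other 5 lay near 0, at -0.11 for Hey1, 0.03 for Notch2, 0.18 for Jag1, 0.21 for Notch3 and 0.26 for Dll3, with standard errors of 0.31 to 0.43. The median of the 10 was -0.33. The signs of Notch2, Notch3, Dll3 and Jag1 flip with gene body totals in place of TMM.

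With gene body totals as library sizes, the median log2 change of all windows was -0.47, and 25.7% of windows were called lower and 0.329% higher. On that scale 5 of the 10 windows were called lower in edgeR: Notch1 by 1.35 (SE 0.30, adjusted p 0.000203), Dll1 by 1.34 (SE 0.32, adjusted p 0.000573), Rbpj by 1.18 (SE 0.32, adjusted p 0.00261), Hes5 by 1.15 (SE 0.30, adjusted p 0.00175) and Hes1 by 1.05 (SE 0.32, adjusted p 0.00699). Each of these 5 was below the median shift of all windows. The others differed by -0.60 (Hey1), -0.48 (Notch2), -0.32 (Jag1), -0.28 (Notch3) and -0.24 (Dll3), and did not pass.

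**Figure D2:**
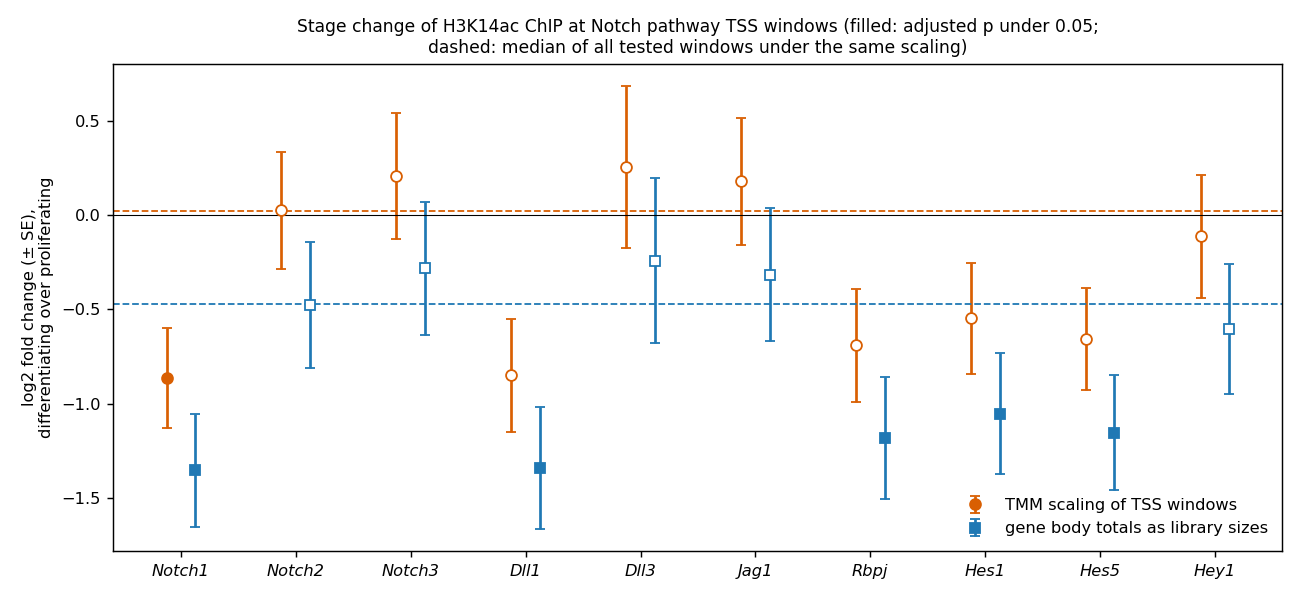
Log2 change (differentiating over proliferating) with its SE for each TSS window under TMM scaling (circles) and with gene body totals as library sizes (squares); filled symbols have an edgeR adjusted p under 0.05, and dashed lines give the median of all tested windows, 0.02 and -0.47. Notch1, Dll1, Rbpj, Hes1 and Hes5 lie below the median line under both scalings, while Notch1 alone is filled under TMM.

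The Notch1 call under TMM ended when only the 270 windows with a mean count of at least 30 were scaled and tested, where it was -0.26 (adjusted p 0.435), and without differentiating replicate 2 (adjusted p 0.127) or 3 (0.191) and without proliferating replicate 1 (0.058) or 3 (0.0934), and without proliferating replicate 1 the Dll1 (0.0241) and Hes5 (0.0333) windows were called. Differentiating libraries had higher totals and lower stem cell marker windows than proliferating ones, and the part of these in the differences was not tested; in a culture of mixed cells fewer cells with the mark and less of the mark per cell cannot be told apart.

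The second question was whether the windows held more reads than input chromatin. In differentiating cells none of the 10 windows was called against input in edgeR, where 0.0835% of windows were called higher and 0.00464% lower (2125 windows at an unadjusted p under 0.05, 2 of them among the 10, and 0 called by DESeq2). Notch2 had the largest mean ratio, at 2.65, 2.73 and 2.51 times input (log2 1.37, SE 0.51, adjusted p 0.309). Notch1, whose replicate 1 had the highest ratio among the 3 WT libraries of the 10 genes, stood at 2.76, 1.52 and 1.64 times input (log2 0.96, SE 0.49, adjusted p 0.506), and Hes5 stood at 1.83, 0.931 and 2.00 times input (log2 0.68, adjusted p 0.653). The 3 receptors were above input in all 3 differentiating libraries, and no other of the 10 genes was, where 33.3% of all windows had this. The mean was above input at 9 of 10 genes, against 57.3% of all windows.

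Hes1 in differentiating cells lay at 0.851, 1.05 and 1.17 times input, and Rbpj at 1.21, 1.39 and 0.892 times input. Hey1 stood at 1.25, 0.993 and 0.874 times input, and Dll3 at 0.856, 0.916 and 1.09 times input. These 4 genes scattered around input at this stage. Dll1 (1.43, 0.993 and 1.49 times input) and Jag1 (1.72, 0.876 and 0.743 times input) also had libraries on both sides of it.

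In proliferating cells, 3 of 10 windows were called higher than input in edgeR and none lower, where 17.7% of all 21557 windows were called higher and 0.524% lower. Hes5 was highest, at 2.61, 5.45 and 5.20 times its input (log2 2.15, SE 0.49, adjusted p 0.000386). Rbpj stood at 2.61, 3.51 and 3.69 times input (log2 1.72, SE 0.48, adjusted p 0.00446), and Notch1 at 3.41, 2.97 and 2.85 times input (log2 1.61, SE 0.44, adjusted p 0.00391). These 3 genes encode an effector, the DNA-binding partner and a receptor, and each was called whichever of the 6 WT libraries was left out. Differentiating libraries enter this comparison only through the estimate of variation and the minimum mean count that sets which windows are tested. The single input of the stage could not be left out.

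Hes1 was at 2.77, 1.92 and 2.11 times input in proliferating libraries and just missed the threshold (log2 1.17, SE 0.45, adjusted p 0.0542). Notch2 (log2 0.96), Notch3 (0.94), Hey1 (0.93), Dll1 (0.91), Jag1 (0.51) and Dll3 (0.33) did not pass in edgeR, with adjusted p of 0.122 to 0.764. All 3 proliferating libraries were above input at 9 of 10 genes, where 46.7% of all windows had this, and the mean was above input at 10 of 10, against 70.4% of all windows. The exception was Dll3, at 0.713, 1.35 and 1.56 times input. The median log2 ratio was 0.95 over the 10 windows and 0.45 over all windows.

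**Figure D3:**
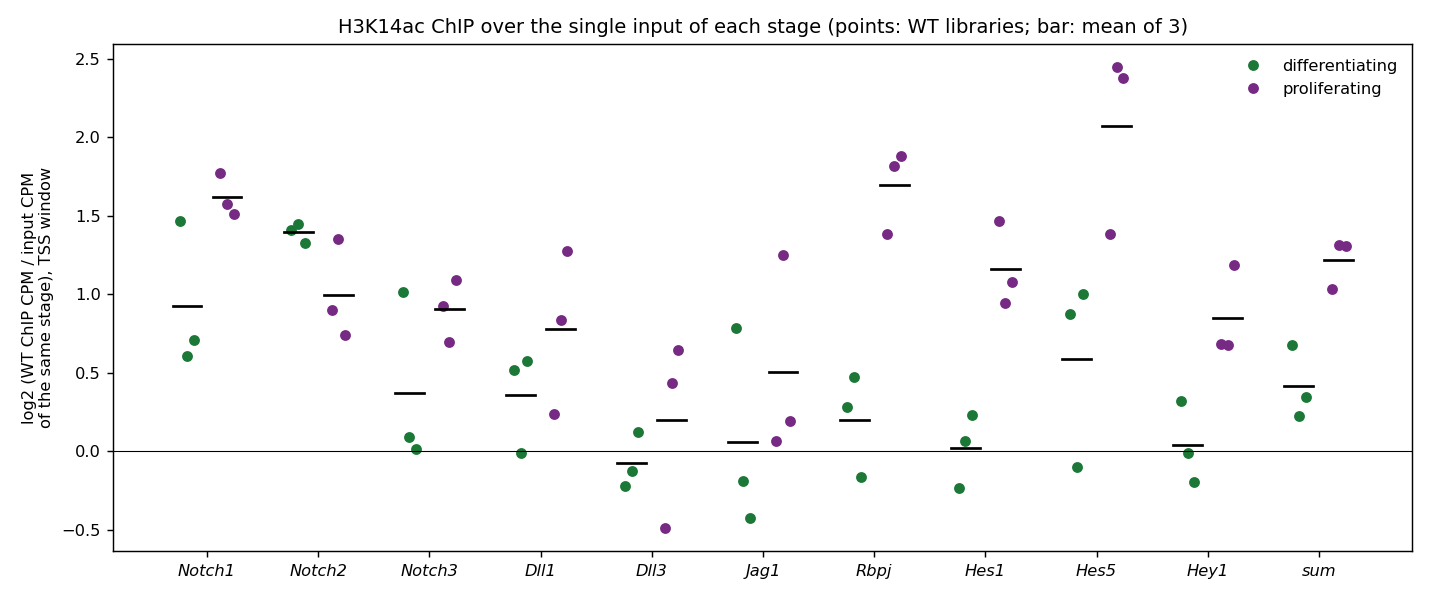
Log2 ratio of the CPM in each WT H3K14ac ChIP library to the CPM of the input of the same stage, per TSS window and for the sum of the 10 windows, with differentiating (green) left of proliferating (purple); bars are means of 3 libraries. Hes5, Rbpj and Notch1 stand highest in proliferating cells, and Notch2 is the only gene whose mean is higher in differentiating cells.

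The stage difference of the log2 ratios over input was tested directly. It was called at none of the 10 genes in edgeR, and at 0.0278% of all windows lower and 0.0% higher (2247 at an unadjusted p under 0.05, and 0 called by DESeq2). Rbpj differed by -1.53 (SE 0.69, adjusted p 0.41), Hes5 by -1.47 (SE 0.71, adjusted p 0.448) and Hes1 by -1.12 (SE 0.65, adjusted p 0.544). Of the rest, 6 were between -0.89 (Hey1) and -0.39 (Dll3), and Notch2 alone was positive, at 0.41. The median was -0.59 over the 10 windows and -0.37 over all windows.

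Summed over the 10 windows, the ratio to input was 1.60, 1.17 and 1.27 in differentiating libraries and 2.04, 2.49 and 2.47 in proliferating libraries, without overlap. Input had 1 library a stage, which the test assumes to vary like the WT libraries, so an error of that library would move all ratios of its stage together. With TMM scaling, which moves the median of all windows in proliferating cells from 0.45 to -0.03 and the calls over all windows to 1458 higher and 508 lower (3825 and 113 without it), Hes5 alone stayed called (log2 1.67, adjusted p 0.00892), with Notch1 at 0.0562 and Rbpj at 0.0686.

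The IgG control, a non-specific antibody that shows unspecific pull-down, gave 0 to 6 reads in each of the 10 windows. In differentiating cells, 0 of 9 tested windows were called over IgG in edgeR, where 0.0% of all windows were called higher and 0.0228% lower (1254 at an unadjusted p under 0.05, 1 of them among the 9, and 0 called by DESeq2). Dll3 was under the count minimum in both stages. Of the 9 log2 ratios 8 were positive, and Dll1 was the exception (1.35, 0.939 and 1.41 CPM in ChIP against 1.80 CPM in IgG). At Rbpj the IgG library had no read, so no fold is given.

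In proliferating cells, 0 of 9 tested windows were called over IgG in edgeR, where 4.33% of all windows were called higher and 0.16% lower. At an unadjusted edgeR p under 0.05 there were 3 of the 9, and 3091 of all 13158 windows. DESeq2 called 0 of the 9 and 4 of all windows, but it gave no adjusted p at 12500 windows, so it is hardly a second check. Rbpj, with 11, 13 and 26 ChIP reads against 1 IgG read, was nearest (log2 2.91, SE 1.04, adjusted p 0.0709). Over all windows the median log2 ratio was 0.86, with 570 called higher and 21 lower, and TMM scaling moved these to 0.10, 4 and 32. Hey1 stood at 1.76, 1.75 and 2.50 CPM in ChIP against 2.38 CPM in IgG, and Jag1 at 1.32, 3.01 and 1.45 CPM in ChIP against 1.98 CPM in IgG. At these 2 genes the ChIP was not above unspecific pull-down in 2 of 3 libraries. Hes5, the highest over input, had 5 IgG reads (1.98 CPM, 1.96 times input) against 2.64, 5.51 and 5.26 CPM in ChIP. Its edgeR log2 ratio over IgG was 1.19 (SE 0.68, adjusted p 0.27). Summed over the 10 windows, IgG stood at 0.564 times input in differentiating cells (18 reads, 95% Poisson interval 0.335 to 0.892) and 1.09 times input in proliferating cells (34 reads, 0.753 to 1.52). Intervals cover counting error only. Both lay below every ChIP library of their stage, while the input and IgG comparisons share their WT libraries and are not independent.

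In the Hbo1 null libraries the 10 windows held 3 reads in differentiating cells (1 each at Notch2, Rbpj and Hes1) and 0 in proliferating cells. The first is 0.813 times what the input would give at that depth (95% Poisson interval 0.168 to 2.38), and input would give 0.793 reads at the depth of the second, under the 3 reads that a count of 0 allows. A loss of the mark at these genes was therefore not detectable at this depth. Kat7 itself had 11 and 4 gene body reads in the differentiating and proliferating null libraries, 34.3 CPM (95% Poisson interval 17.1 to 61.4) and 62.4 CPM (17.0 to 159.8), against 32.2 to 37.9 and 26.9 to 32.8 CPM in WT libraries of these stages, which does not check the labels because the deleted part is not stated.

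A further question was where within the genes the signal lay. Reads were concentrated at the gene start of Notch1: per kb, the window held 2.50, 1.79 and 1.84 times as many reads as the rest of the gene in differentiating libraries and 5.16, 4.38 and 4.24 times as many in proliferating libraries, against 1.01 and 1.65 times in the inputs of these stages. Rbpj stood at 1.44, 1.61 and 0.970 in differentiating and 2.79, 3.15 and 3.82 in proliferating libraries, with inputs at 1.29 and 0.979. Dll1 stood at 1.25, 1.13 and 1.47 in differentiating and 1.98, 2.30 and 3.62 in proliferating libraries, but its inputs were at 0.870 (differentiating) and 2.05 (proliferating). In all 3 genes the stages did not overlap. The same held at Notch2, with 1.58, 1.80 and 1.60 in differentiating and 1.93, 2.97 and 1.91 in proliferating libraries. How many of all genes had this was not counted. Over all genes together, TSS windows took 4.56% to 4.90% of gene body reads in proliferating and 3.24% to 3.68% in differentiating libraries, without overlap. The lack of overlap therefore does not set these genes apart.

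The start-to-rest ratio of Hes1 averaged 1.72 ± 0.583 in differentiating and 1.56 ± 0.299 in proliferating libraries (SD, n = 3 each), against 1.44 and 1.36 in the inputs of these stages, over a gene of 2440 bases. Its libraries lay at 1.05, 2.06 and 2.06 in differentiating and 1.73, 1.22 and 1.74 in proliferating cells, on both sides of the inputs, and the stages overlapped. Hes5, of 1449 bases, averaged 0.935 ± 0.485 in differentiating and 1.55 ± 0.819 in proliferating libraries. For these 2 short genes a window of 1000 bases covers much of the body, and the rest holds few reads. The other 5 genes averaged 1.32 (Hey1) to 1.76 (Notch3) in differentiating and 1.52 (Dll3) to 2.31 (Notch3) in proliferating libraries.

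Over all 10 genes together, the windows took 4.89%, 3.94% and 4.12% of gene body reads in differentiating libraries and 6.55%, 8.0% and 8.20% in proliferating libraries, against 2.98% and 3.12% in the inputs and 1.97% and 3.49% in IgG of these stages. This share compares reads within a library and needs no scaling between libraries. Every ChIP library was above both inputs, and the stages did not overlap. The same share over all genes was 3.68%, 3.24% and 3.43% in differentiating and 4.56%, 4.90% and 4.85% in proliferating libraries, against 3.23% and 3.36% in the inputs of these stages, so the stages did not overlap there either.

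**Figure D4:**
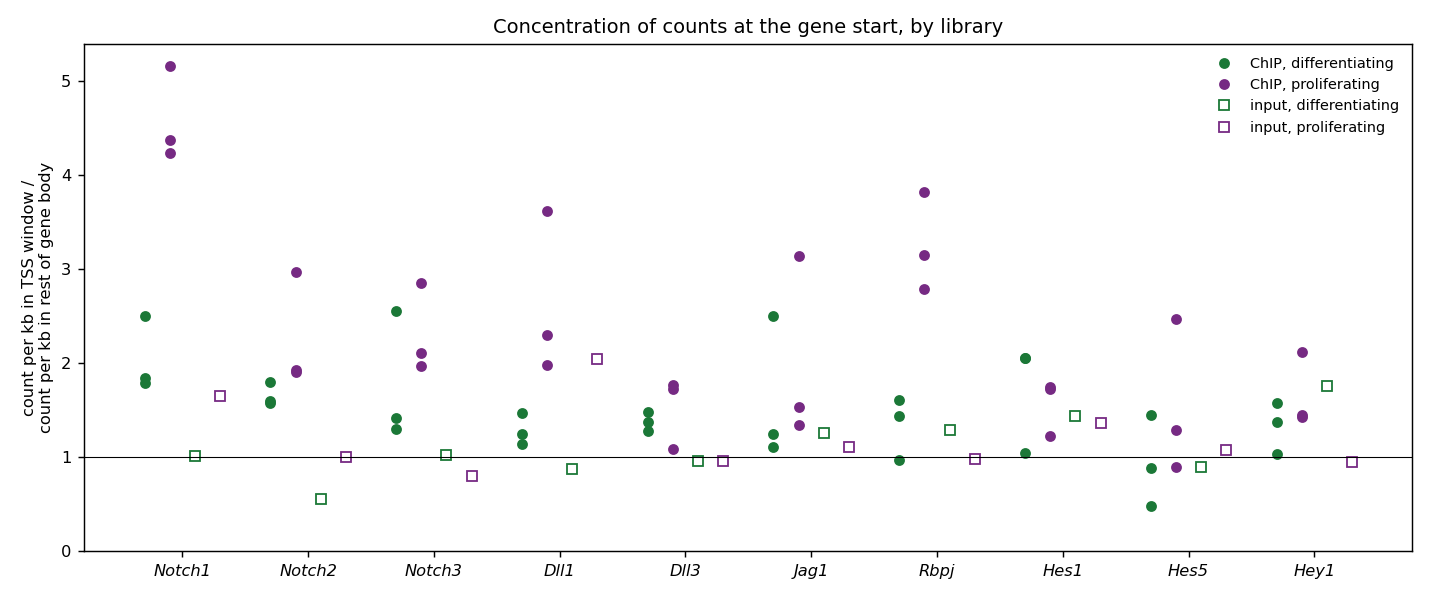
Reads per kb in the TSS window over reads per kb in the rest of the gene body, for each WT ChIP library (circles) and each input (squares), with differentiating (green) left of proliferating (purple); the line at 1 marks an even spread. Notch1 in proliferating cells, at 4.24 to 5.16, is the highest group, and the Dll1 input of proliferating cells reaches its ChIP values.

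Over gene bodies, 4 of 10 genes (Notch1, Hes1, Hes5 and Hey1) had every differentiating library below every proliferating one in CPM, where 10.8% of all bodies did and 6.55% lay above. The Hes1 body stood at 3.03, 2.66 and 2.99 CPM in differentiating and 7.26, 6.01 and 5.52 CPM in proliferating libraries. The edgeR test with TMM called no body of the 10, and 0.126% of all bodies lower and 0.0366% higher (2756 at an unadjusted p under 0.05, and 184 called by DESeq2). Hes1 was nearest, at -1.06 on the log2 scale (SE 0.18, adjusted p 0.0639), and DESeq2 called it (adjusted p 0.0196). The Hes1 body in the single IgG libraries was lower in differentiating cells too, at 0.722 CPM (2 reads) against 4.35 CPM (11 reads) in proliferating cells. The part of unspecific pull-down in the Hes1 difference was not tested. Hes5, at 3.03, 2.27 and 3.81 CPM in differentiating and 3.96, 6.51 and 7.09 CPM in proliferating libraries, differed by -0.93 (SE 0.28, adjusted p 0.256). The Notch1 body stood at 61.9, 47.0 and 49.2 CPM in differentiating and 64.1, 64.9 and 64.0 CPM in proliferating libraries (log2 -0.26, SE 0.10, unadjusted p 0.0342, adjusted p 0.405). The Notch2 and Notch3 bodies overlapped between the stages and differed by -0.06 (SE 0.07) and 0.18 (SE 0.08).

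Against input, 0 of 10 bodies were called in differentiating cells in edgeR, where 0.6% were called higher and 1.33% lower. Of all 24848 bodies, 6227 had an unadjusted edgeR p under 0.05, 2 of them among the 10. DESeq2 called 477 bodies, 0 of them among the 10. There the Hes1 body lay at 1.01, 0.888 and 0.997 times input, Hes5 at 1.60, 1.20 and 2.01 times input and Notch3 at 0.835, 0.773 and 0.795 times input. In proliferating cells the bodies of Hes5 and Hes1 were called higher than input and that of Notch3 lower in edgeR, where 2.89% of all bodies were called higher and 6.38% lower (718 and 1586, or 786 and 800 with TMM scaling). The Hes5 body stood at 2.77, 4.55 and 4.95 times input (log2 2.04, SE 0.45, adjusted p 0.0256) and the Hes1 body at 2.46, 2.04 and 1.87 times input (log2 1.07, SE 0.29, adjusted p 0.0471). The Notch3 body stood at 0.740, 0.673 and 0.619 times input and fell by 0.57 on the log2 scale (SE 0.12, adjusted p 0.0231), while its window was at 1.90, 1.62 and 2.13 times input. ChIP was not tested against IgG over bodies. The proliferating IgG library stood at 1.93 (Hes5, 7 reads), 1.48 (Hes1, 11 reads) and 0.967 (Notch3, 130 reads) times input. The calls of Hes5 (adjusted p 0.101), Hes1 (0.1) and Notch3 (0.099) all ended without proliferating replicate 3. Those of Hes1 (0.0739) without differentiating replicate 1, of Hes1 (0.0825) and Notch3 (0.0557) without differentiating replicate 2, and of Hes5 (0.0557) and Hes1 (0.078) without proliferating replicate 2 ended too.

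Of 58 other genes of the pathway, 52 windows were tested between the stages, and 7 were called lower and 0 higher in edgeR, where 4.57% of all windows were called lower and 2.03% higher. Of these, 6 were among 22 tested genes for nuclear factors, 1 among 26 for receptor processing and trafficking, and 0 among 4 other receptors and ligands. Nrarp, a direct Notch target whose product limits the receptor's intracellular part, fell by 1.04 on the log2 scale (SE 0.27, adjusted p 0.00909), and Lfng, a glycosyltransferase that modifies Notch receptors, by 1.02 (SE 0.28, adjusted p 0.0133). The co-repressor genes Spen (fell by 0.97, adjusted p 0.0133), Tle4 (0.99, adjusted p 0.0108), Tle3 (0.95, adjusted p 0.0191), Ctbp1 (1.03, adjusted p 0.0287) and Ncor1 (0.89, adjusted p 0.0364) made up the rest; Ncor1, the seventh by p, was named after its value was seen. Of the 52 log2 changes 39 were negative, with a median of -0.25 against 0.02 over all windows.

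TLE, CtBP, SPEN and NCOR proteins belong to the co-repressor machinery that RBPJ or HES proteins recruit. With only windows of a mean count of at least 30, Spen was at -0.37 (adjusted p 0.254) and Tle4 at -0.39 (0.229). All 6 calls with the smallest p ended without differentiating replicate 2, with adjusted p of 0.0775 (Nrarp), 0.0802 (Tle4), 0.0877 (Spen), 0.0939 (Ctbp1), 0.119 (Tle3) and 0.126 (Lfng). Without differentiating replicate 3, Lfng (0.0694), Tle3 (0.0874), Ctbp1 (0.113) and Spen (0.114) were not called, without proliferating replicate 2 Spen (0.0543) and Tle3 (0.054), and without proliferating replicate 3 all but Nrarp (0.0667 for Lfng to 0.575 for Ctbp1).

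**Figure D5:**
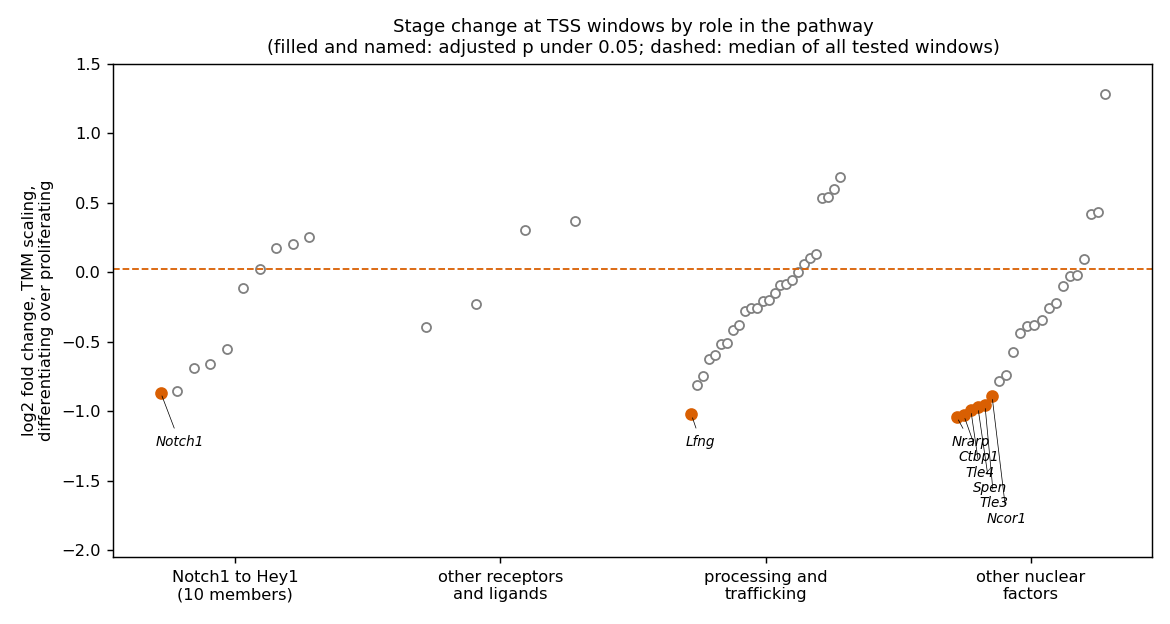
Log2 change of TSS windows under TMM scaling (differentiating over proliferating) for the 10 genes and for the other tested pathway genes by role, ordered by size within each role; filled and named symbols have an edgeR adjusted p under 0.05, and the dashed line is the median of all tested windows (0.02). All 8 filled symbols lie below the line, and 6 of them are other nuclear factors.

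Against input, 0 of 53 tested windows of the other pathway genes were called in differentiating cells in edgeR, where 0.0835% of all windows were called higher and 0.00464% lower. At an unadjusted edgeR p under 0.05 there were 10 of the 53, and 2125 of all 21557 windows. In proliferating cells, 18 of 53 tested windows of the other pathway genes were called higher and 0 lower in edgeR, where 17.7% of all windows were called higher and 0.524% lower. They were led by Mib1, the ubiquitin ligase that lets ligands be taken up by the cell that shows them (log2 2.81, adjusted p 2.22e-05), Spen (2.49), the co-activator Maml1 (2.21), Tle4 (2.16), Lfng (2.11) and Nrarp (1.98). Their log2 ratios were of the size seen at Hes5. Over IgG in proliferating cells 5 of 38 were called higher, among them Ncor1 (log2 3.27), Tle1 (3.22), Tle4 (2.42) and Spen (2.37), where 4.33% of all windows were called higher. These calls ended with TMM scaling (adjusted p 0.245 to 0.373), with no filter (0.0769 to 0.0915), without proliferating replicate 2 (0.052 to 0.0886) or 3 (0.0695 to 0.0978), and for Spen without differentiating replicate 3 (0.0531); DESeq2 gave 0.0881 for Tle4 and Spen and no adjusted p for the others, Neurl1b included. Over gene bodies in proliferating cells Nrarp was called higher than input (log2 1.48) and 9 genes lower, among them Ctbp1 (-0.84), where 2.89% of all bodies were called higher and 6.38% lower. Without proliferating replicate 3, Nrarp (adjusted p 0.0833) and Ctbp1 (0.0849) were not called.

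The summed windows of the 10 genes were compared with those of other genes over the 10 WT ChIP, input and IgG libraries. Only the closest are named. Among 66 windows with a mean count of at least 30, the 10 genes not among them, the highest Pearson correlations of log2 CPM were with Hjurp (0.940), Spry2 (0.930), Tnrc18 (0.926), Chaserr (0.908) and Rbm39 (0.902). These values share the difference between ChIP and control libraries, the stage and the library totals, and are a description.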

How the data were processed

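H3K14ac ChIP, input and IgG libraries were TruSeq DNA libraries sequenced on a NextSeq, per the labels' protocols. The authors used bcl2fastq for the reads, featureCounts for the counting and mm10 as the genome, per the submitters' processing notes; versions are not listed, and the aligner and the handling of multiply aligned reads are not given in the sources used here. The authors deposited raw counts for 12 libraries in 2 tables (TSS windows and gene bodies); the 24 deposited count files per sample equal their columns. Gene names, coordinates and promoters come from RefSeq (GRCm38.p6), which matched 25204 of 27095 gene IDs. Gene lengths equal those of RefSeq for 6 of the 10 genes. The printed spans of Notch3, Dll1, Rbpj and Hes5 are longer than the counted genes, so their windows need not begin at the printed ends. Other RefSeq genes overlap Notch1, Notch2, Notch3 and Hey1, and their part in the reads was not tested.

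Samples were grouped by stage, genotype and antibody as labelled, although the antibody label of the input and IgG libraries also names H3K14ac. Tests used edgeR 4.0.16 in R 4.3.3 (quasi-likelihood fit, two-sided, prior count 0.125, Benjamini-Hochberg adjustment over all genes whose counts averaged 10 or more, threshold 0.05). The stage fits used the 6 WT ChIP libraries with TMM. Fits against input or IgG used 4 groups (antibody by stage) with gene body totals as library sizes and no TMM, since TMM assumes that most windows are alike in ChIP and background. CPM are counts per 1e6 gene body counts; correlations used log2 CPM with a pseudocount of 0.5. Null libraries were not tested, and their counts have exact Poisson intervals (95%). The members' windows held 3 to 43 reads in WT libraries, which limits precision. Alternatives were DESeq2 1.42.0, other scalings, count minimums, a replicate block and leaving out each WT library.

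The members and gene lists were chosen with earlier results of these data known. All 10 members were named throughout, and of 58 other pathway genes (3 lists by role) up to 6 per comparison and direction with the smallest adjusted p.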

Additional observations from a re-analysis of the deposited data

How the results depend on the processing

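At 3 to 43 reads per window in WT libraries, depth limits every comparison: 1 library can end a call. Windows called between stages numbered 5060 with gene body totals, 538 with DESeq2, 52 with a mean count of at least 30 and 787 with a replicate block, against 1285 as reported, with 5, 1, 0 and 0 of the 10 genes. Same-numbered libraries did not consistently deviate together (r -0.0119, -0.033 and 0.00403 at windows, -0.122, 0.199 and -0.193 over bodies), so the replicate block pairs libraries by number only. Over bodies proliferating replicate 1 gave r 0.274 with differentiating replicate 3 and -0.296 with replicate 2. Within stages, body counts were most alike in proliferating replicates 2 and 3 and differentiating replicates 1 and 2 (chi-square per degree of freedom 1.44 and 1.94). The other pairs had 4.16 to 5.78. Over bodies DESeq2 called 184 (1 of the 10 genes) against 40. Over input in proliferating cells 1966 windows were called with TMM, 1722 with DESeq2, 67 with a mean count of at least 30 and 2543 with the block, against 3938; of the 10 genes TMM kept 1 and the minimum of 30 kept 0, against 3. In differentiating cells these were 0 with DESeq2, 31 without a filter and 0 with the block, against 19. The stage difference over input gave 0 with TMM, DESeq2, no filter and the block, against 6. Over IgG in proliferating cells 36 (TMM), 4 (DESeq2), 179 (no filter) and 31 (minimum of 30) were called, against 591, and in differentiating cells 15, 0 and 14 (TMM, DESeq2, minimum of 30), against 3. No paired analysis was possible against IgG because no IgG library has a replicate number. Bodies over input in proliferating cells numbered 1375 with DESeq2 and 756 with the block (0 of the 10 genes), against 2304 (3 of the 10), and in differentiating cells 0 with TMM, no filter and the block, against 479. The minimum of 30 left 270 windows between the stages (33 called higher and 19 lower, against 395 and 890), and Notch1, still tested, gave -0.26 (adjusted p 0.435). The cause of these differences was not tested.

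Leaving out each WT library in turn gave 331 to 1256 windows between stages (0 to 2 of the 10 genes), 3 to 66 bodies (0 to 0), 2531 to 4339 windows over input in proliferating (3 to 4) and 1 to 23 in differentiating cells (0 to 0), 0 to 65 for the stage difference (0 to 0), 292 to 820 over IgG in proliferating and 3 to 5 in differentiating cells (0 to 0 in both), and 0 to 5437 (0 to 4) and 0 to 3710 (0 to 1) bodies over input in proliferating and differentiating cells.

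Signs flipped only for log2 values that were not called. Between stages at windows, gene body totals gave -0.48 (Notch2), -0.28 (Notch3), -0.24 (Dll3) and -0.32 (Jag1), and no filter gave -0.075 (Notch2); leaving out a library gave ranges of -0.17 to 0.15 (Notch2), -0.059 to 0.47 (Notch3), -0.014 to 0.54 (Dll3), -0.15 to 0.50 (Jag1) and -0.24 to 0.11 (Hey1), and over bodies -0.18 to 0.13 (Dll3). Over input at windows, Dll3 in proliferating cells gave -0.15 (TMM) and -0.027 (replicate block), and its stage difference 0.013 (TMM); in differentiating cells TMM gave -0.033 (Hes1) and -0.056 (Hey1), and leaving out a library -0.052 to 0.017 (Dll3), -0.32 to 0.37 (Jag1), -0.075 to 0.16 (Hes1) and -0.11 to 0.16 (Hey1). Over IgG in proliferating cells TMM gave -0.23 (Notch2), and Jag1 ranged from -0.50 to 0.094. Over input at bodies, Rbpj in proliferating cells gave -0.055 (replicate block; -0.051 to 0.066 leaving out a library), and in differentiating cells TMM gave 0.091 (Notch1), 0.012 (Dll1) and 0.075 (Hes1), the replicate block 0.10 (Notch1) and 0.097 (Hes1), and leaving out a library -0.16 to 0.045 (Notch1) and -0.079 to 0.0056 (Hes1). Of all values of named genes under alternatives, 1024 kept sign and side of the threshold, 91 lost a call, 11 gained one and 39 changed sign.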
